A study of Mus musculus with 5 samples.

Results

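Of 12058 STAT3-bound regions that the authors called against IgG in mouse dendritic cells, 2020 had a score of 40 or more, overlapped no region of the other STAT3 list and overlapped no H3K4me3 region of either condition. SAHA-treated cells gave 1494 of these regions out of 8551 in their list (17.5%), and diluent-treated cells gave 526 of 3507 (15%). They are called SAHA regions and diluent regions here. The score is the authors' own value for each region, and the members were chosen by it and by the overlaps, so neither is a result. The score minimum alone kept 2621 SAHA regions (30.7%) and 976 diluent regions (27.8%). Just inside it, the SAHA regions at Ciita and Galnt9 and the diluent regions at Cpne8, Zfp366 and Elk4 all had scores that round to 40. Just outside it, the scores were 39.9 at Klf6 and Parl in the SAHA list, while those at Tnrc6b in the SAHA list and at Ccdc41 and Arg1 in the diluent list rounded to 40 from below.

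The cells were grown from the bone marrow of female C57BL/6 mice aged 10 weeks, for 7 days in GM-CSF and IL-4 (10 ng/mL each), and were then purified on CD11c to 95%. All groups share this culture. For 12 hours they received either SAHA (vorinostat, which inhibits histone deacetylases; its dose is labelled 500 nm) or its diluent, before chromatin of 200 to 500 bp was immunoprecipitated and sequenced. The libraries were STAT3 in SAHA, H3K4me3 in SAHA, STAT3 in diluent, H3K4me3 in diluent and IgG in diluent, 1 each. Filtered tags came to 17810183 for STAT3 in SAHA, 25013431 for STAT3 in diluent and 18925827 for IgG, and to 21428355 for H3K4me3 in SAHA and 22420200 for H3K4me3 in diluent. With 1 library per group no difference has a replicate check, no p-value is given, and the intervals (exact Clopper-Pearson, 95%) cover counting error only. A diluent region was checked against the longer SAHA list and a SAHA region against the shorter diluent list. The number unshared can therefore depend on the lengths of both, and the part of list length was not tested. Among the 500 highest scores of each list, the same rule left 167 SAHA regions and 245 diluent regions. These were still checked against the whole opposite list.

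STAT3 is a transcription factor that Janus kinases activate downstream of cytokine receptors such as those for IL-6 and IL-10, and in dendritic cells it is known for restraining maturation and inflammatory output. It binds DNA as a dimer, at promoters and at distal enhancers. H3K4me3 marks active promoters. Nonspecific IgG pulls down chromatin without a chosen target and shows where tags pile up in any library.

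The few unshared regions that lay on the start of a named gene are shown first by that start. The windows, 250 bases before the start and 50 bases from it onward (in capitals), are RefSeq's for GRCm38.p6, matched by symbol, while the regions themselves are on mm9. The SAHA region at Grpr, the receptor of gastrin-releasing peptide, lay on chrX:159987142-159988031 with its midpoint 7 bp upstream of the start, the closest of the SAHA regions. The SAHA region at Defb28, a beta-defensin, lay on chr2:152343752-152344341 with its midpoint 56 bp inside the gene. The diluent region at Clec4b1, a C-type lectin receptor of dendritic cells and other myeloid cells, lay on chr6:122999476-123000544 with its midpoint 30 bp inside the gene, the closest of the diluent regions.
Grpr: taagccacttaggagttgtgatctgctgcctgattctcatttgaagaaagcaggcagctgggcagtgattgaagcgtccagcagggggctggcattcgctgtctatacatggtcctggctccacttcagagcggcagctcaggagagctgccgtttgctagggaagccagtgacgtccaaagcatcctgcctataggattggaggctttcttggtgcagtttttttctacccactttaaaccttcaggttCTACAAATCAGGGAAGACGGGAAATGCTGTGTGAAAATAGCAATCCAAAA
Defb28: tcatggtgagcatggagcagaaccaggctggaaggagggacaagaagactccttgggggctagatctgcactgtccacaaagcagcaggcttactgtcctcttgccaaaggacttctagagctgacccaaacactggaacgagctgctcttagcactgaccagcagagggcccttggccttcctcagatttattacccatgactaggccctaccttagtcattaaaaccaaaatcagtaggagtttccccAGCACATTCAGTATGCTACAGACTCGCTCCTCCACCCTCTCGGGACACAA
Clec4b1: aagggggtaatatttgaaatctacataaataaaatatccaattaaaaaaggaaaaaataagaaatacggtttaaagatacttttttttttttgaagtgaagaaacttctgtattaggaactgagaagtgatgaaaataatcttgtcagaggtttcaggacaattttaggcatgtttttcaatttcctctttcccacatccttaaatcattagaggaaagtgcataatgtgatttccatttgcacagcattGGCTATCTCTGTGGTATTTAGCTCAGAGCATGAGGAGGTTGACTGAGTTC
None of these starts had H3K4me3 within 1 kb in either condition, and the scores were 40.9 at Grpr, 43.5 at Defb28 and 42.0 at Clec4b1. Midpoints lay within 1 kb of the assigned start for 2.61% of SAHA regions and 1.33% of diluent regions. The rest of the lists, which include regions on H3K4me3, had 19.5% in SAHA and 13.8% in diluent. In all, 20 SAHA regions and 4 diluent regions overlapped the window of their assigned start, and 8 of the SAHA windows and 1 of the diluent windows matched a single RefSeq promoter. Of the 9 matched promoters, 0 held the STAT palindrome TTCNNNGAA, its stricter form TTCCNGGAA (which is contained in the first) or the AP-1 motif TGANTCA, read on both strands. Of all 32851 promoters in the table, 8.30%, 1.15% and 7.81% held them. With only 9 promoters the 0 cannot be told apart from these shares, and nothing is read from it. At Cgnl1, Slc36a1 and Pik3r2 the listed and matched transcripts also differed in length, by 83220, 13097 and 5536 bp. Their windows may therefore belong to another start than the assigned one.

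A second set shown by sequence is the microRNA genes, whose products repress messenger RNAs that pair with their seed. SAHA regions were assigned to 13 microRNA genes and diluent regions to 5, and the mature sequences of 11 of the SAHA and 4 of the diluent genes matched RefSeq. The share of microRNA genes in the whole lists was not counted, so these counts are not read as a trait of the unshared regions. The 6 shown are the arm usually studied of each matched gene with a region within 10 kb of its start, with the seed (bases 2 to 8) in capitals. No seed was shared among them.
miR-30c-5p: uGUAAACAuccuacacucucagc
miR-148b-3p: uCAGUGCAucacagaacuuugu
miR-128-3p: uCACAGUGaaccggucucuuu
miR-29b-3p: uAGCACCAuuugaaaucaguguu
miR-146a-5p: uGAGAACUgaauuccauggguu
let-7c-5p: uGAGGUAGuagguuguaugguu
The SAHA region closest to a microRNA start lay 110 bp past Mir30c-1 (score 41.9). The others lay 1.5 kb past Mir148b (71.5), 5.72 kb past Mir128-1 (57.0), 3.73 kb upstream of Mir29b-2 (45.9) and 7.41 kb past Mir146, the source of miR-146a and a known brake on NF-kB signalling (50.1). The diluent region at Mirlet7c-1 lay 3.19 kb past its start (60.2). None of the starts assigned to these 6 microRNA genes had H3K4me3 within 1 kb. Those starts are the listed ones of the microRNA genes, and where their transcription begins was not examined. No region without a control was called at these 6 regions in their own STAT3 library.

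The largest share of unshared regions lay 5 to 50 kb from the start the authors assigned, 855 SAHA regions (57.2%) and 256 diluent regions (48.7%). That start was the nearest in the 4 lists for all 2020. The median distance was 21.6 kb for SAHA regions (quartiles 8.10 and 53.9 kb) and 31.2 kb for diluent regions (12.3 and 84.1 kb). Within 5 kb lay 242 SAHA regions (16.2%, 14.4 to 18.2), against 32.4% of the whole SAHA list, and 66 diluent regions (12.5%, 9.84 to 15.7), against 25.5% of the whole diluent list. Beyond 50 kb lay 397 SAHA regions (26.6%, 24.3 to 28.9), against 21.7% of their list, and 204 diluent regions (38.8%, 34.6 to 43.1), against 29.2% of theirs. The share beyond 50 kb was therefore lower in SAHA than in diluent, as it was in the whole lists. Leaving out H3K4me3 regions removes starts by construction, and unshared regions at H3K4me3 with a score of 40 or more lay within 5 kb in 76.7% of 1007 SAHA cases.

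**Figure D1:**
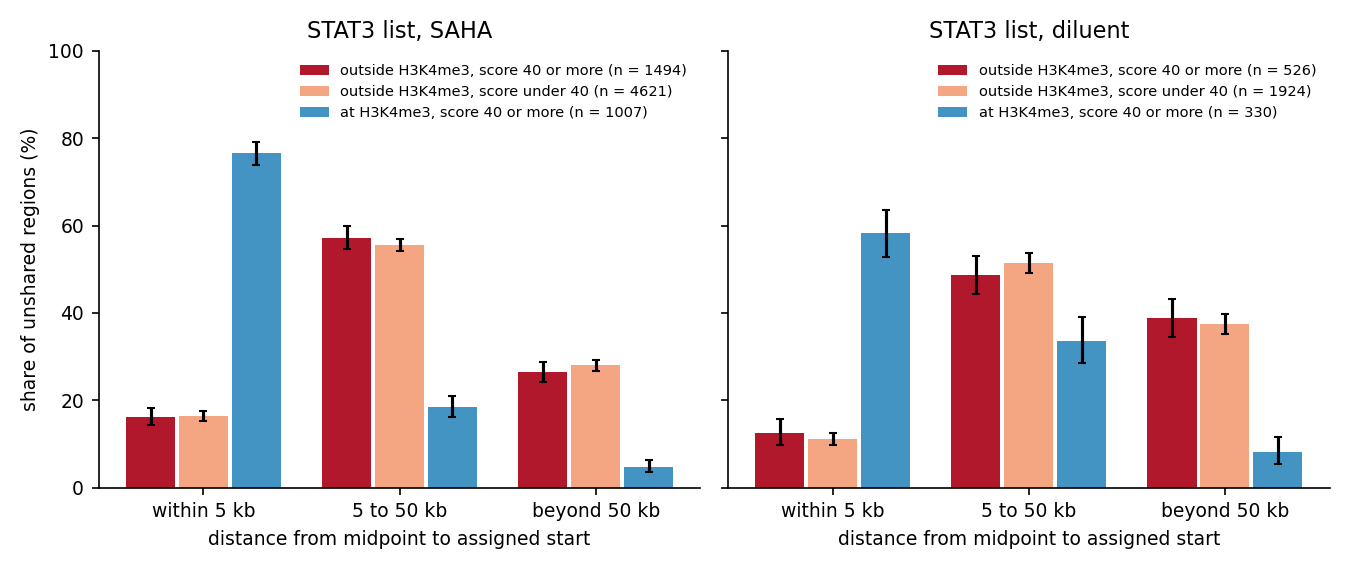
Share of unshared STAT3 regions (%) by distance from the region's midpoint to the assigned start, in the SAHA list (left) and the diluent list (right), for regions outside H3K4me3 with a score of 40 or more, the same with a lower score, and regions at H3K4me3. Error bars are exact 95% intervals, and the first 2 classes have overlapping intervals in every distance bin, as with 26.6% and 28.0% of SAHA regions beyond 50 kb.

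Distance differed little between higher and lower scores. Regions of the same kind with a score under 40 lay beyond 50 kb in 28.0% of 4621 SAHA cases (26.7 to 29.3) and in 37.5% of 1924 diluent cases (35.3 to 39.7), and their median distances were 22.1 kb in SAHA and 31.8 kb in diluent. In each list the interval overlapped that of the higher-scoring regions. SAHA regions lay upstream of the assigned start in 45.2% of cases, inside the transcript in 32.7% and past its end in 22.1%. Diluent regions did so in 45.8%, 27.6% and 26.6%.

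The farthest SAHA region lay 1278 kb upstream of Cdh20, a cadherin (chr1:105387209-105387721, score 42.2). The farthest diluent region lay 1597 kb upstream of Lphn3, an adhesion receptor of neurons (chr5:79851750-79852468, score 41.7). In all, 16 SAHA regions (1.07%) and 9 diluent regions (1.71%) lay beyond 500 kb. The rest of the lists had 0.864% in SAHA and 1.44% in diluent. Regions of the same kind with scores under 40 had 1.32% in SAHA and 2.23% in diluent, so this far tail was not particular to the members. Map3k7, the kinase TAK1 of Toll-like receptor signalling, and Ddx18, an RNA helicase, each had a SAHA region far upstream with a higher score, 79.6 at 770 kb and 52.0 at 789 kb. Both of those overlapped an IgG region.

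SAHA regions were shorter than diluent regions, with a median of 657 bp (quartiles 574 and 813) against 831 bp (667 and 1030). A length of 1 kb or more was reached by 155 SAHA regions (10.4%, 8.87 to 12.0) and 149 diluent regions (28.3%, 24.5 to 32.4). The rest of the lists had 7.69% in SAHA and 14.6% in diluent. Unshared regions at H3K4me3 with a score of 40 or more had 34.4% in SAHA and 48.8% in diluent, so the share was lower in SAHA there too. The regions of the same kind with lower scores had medians of 579 bp in SAHA and 632 bp in diluent, so length moved with score. The SAHA library also had fewer filtered tags than the diluent library, and the part of depth in the lengths was not tested. The median score was 45.2 in both, although scores of different lists are not on a shared footing. The highest was 242 in SAHA and 123 in diluent.

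**Figure D2:**
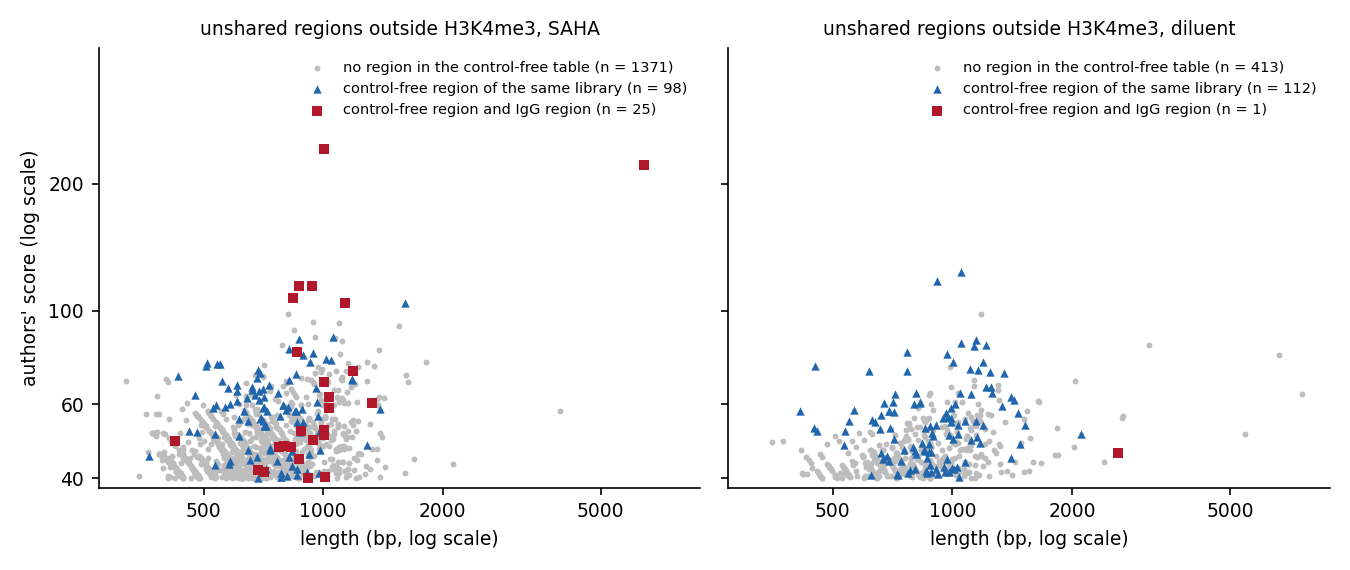
Authors' score against length (bp), both on log scales, for each of the 1494 SAHA regions (left) and 526 diluent regions (right). Triangles mark regions also called in the same STAT3 library without a control and squares those that also overlap an IgG region, which include the 2 SAHA regions with scores above 200.

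The longest regions stood apart from the rest. In SAHA the region at Mir715 spanned 6415 bp on chr17:39979517-39985931, and the next longest, 3957 bp 88.2 kb upstream of the zinc finger gene Zxda and 2121 bp 60.7 kb past the start of Spin4, were neighbours on X (chrX:92129837-92133793 and chrX:92160306-92162426). In diluent, regions of 7613 and 5459 bp at unnamed transcripts of chromosome 8, 6666 bp near Heatr7b1 and 3119 bp near Zfp709 exceeded 3 kb. None of those 4 diluent regions was called in its own library without a control. The shortest were 319 bp in SAHA, in the body of Sgip1, and 352 bp in diluent, in the body of Tpte.

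A second table of the authors gave regions called in each library on its own, without a control, and few unshared regions appeared in it. Such a region overlapped 123 SAHA regions (8.23%, 6.89 to 9.74), against 3.24% of the whole SAHA list, and 113 diluent regions (21.5%, 18 to 25.2), against 8.07% of the whole diluent list. The other 1371 SAHA and 413 diluent regions rested on the comparison with IgG alone. Both tables come from the same reads, and lower scores gave lower shares, 0.584% in SAHA and 1.92% in diluent below 40, so this overlap moves with the score that chose the regions. Unshared regions at H3K4me3 had shares of 9.63% in SAHA and 21.5% in diluent, close to those outside it. Among the 500 highest scores of each list, the shares were 36.5% of 167 SAHA regions (29.2 to 44.3) and 34.7% of 245 diluent regions (28.7 to 41.0). Their order turned, with overlapping intervals.

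The tag counts behind these calls were small. Over the 98 SAHA regions called without a control and away from IgG regions, the count ran from 16 to 45 tags with a median of 19, or 1.07 per 1000000 filtered tags, at a median fold of 6.30 over the local background. Over the 112 such diluent regions it ran from 19 to 60 tags with a median of 27.5, or 1.10 per 1000000, at a median fold of 5.54. The most tags among these SAHA regions were 45 upstream of Mc2r, the receptor of adrenocorticotropic hormone, at a distance of 263 kb. Next came 40 tags at Scd4, a stearoyl-CoA desaturase of fat synthesis, 1.06 kb upstream of its start (chr19:44405955-44407564, score 104), and 37 tags 14.7 kb upstream of Mir760. Bmp2k, a kinase, carried 31 tags inside its body at a score of 76.3.

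The highest-scoring diluent region was 62.5 kb upstream of Tnfaip3, which encodes A20, the deubiquitinase that shuts down NF-kB signalling (chr10:18797224-18798272, score 123, 48 tags, 6.13-fold). Lamc1, a laminin chain, followed with 41 tags 18.6 kb upstream (chr1:155198023-155198938, score 117). Cdhr3, a cadherin family member, had 44 tags (score 85.2), Met, the receptor of hepatocyte growth factor, had 26 (83.8), Ext1, an enzyme of heparan sulfate synthesis, had 34 (78.8), and Lilra5, a leukocyte immunoglobulin-like receptor, had 40 (75.4). Of the 15 highest diluent scores, 11 were also called without a control and 0 overlapped an IgG region. No control-free region of the SAHA library overlapped any of these 15.

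A control-free region of the opposite STAT3 library overlapped 1.87% of SAHA regions, against 0.879% of the rest of the SAHA list. For diluent regions the share was 0.190%, against 0.604% of the rest of the diluent list. The rule barred overlap with the opposite list against IgG, which can partly set these shares. Away from IgG regions, such a control-free region overlapped 3 SAHA regions and 1 diluent region. At these the library whose list held the region had 45 tags (SAHA) against 32 (diluent) near Mc2r, 27 in SAHA against 28 in diluent near Gli3 and 33 in SAHA against 32 in diluent near Galr1. Near 4932411N23Rik on X, the list that held the region was the diluent one, and the counts were 38 tags in SAHA and 60 in diluent. Scaled to 1000000 filtered tags, SAHA over diluent was 1.98 near Mc2r (1.23 to 3.21), 1.35 near Gli3 (0.768 to 2.38), 1.45 near Galr1 (0.863 to 2.43) and 0.889 near 4932411N23Rik (0.576 to 1.36), with exact conditional binomial intervals.

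IgG overlap was found mostly in SAHA. It reached 25 SAHA regions (1.67%, 1.09 to 2.46), against 0.503% of the whole SAHA list, and 1 diluent region (0.190%, 0.00481 to 1.05), against 0.0855% of the whole diluent list. This share moves with the score that chose the regions: below 40 it was 0.260% in SAHA and 0.0520% in diluent. It also differed at the same score minimum. Unshared regions at H3K4me3 with a score of 40 or more had 0.397% in SAHA (0.108 to 1.01) and 0% in diluent. All 25 were also called without a control in STAT3 of SAHA, and in STAT3 of diluent, and 22 of them in H3K4me3, whose lists against IgG left them out. They held 6 of the 15 highest SAHA scores, among them the first 5: Axin2, a negative regulator of Wnt signalling (242, 68.3 kb past its start, chr11:108872686-108873688), Mir715 (222), Chl1, a neural adhesion molecule (115), Txndc11 (114) and mimp3, an alias of Igf2bp3, an RNA-binding protein (107). Without the 25, the highest SAHA score was 104, at Scd4. Of the 15, 7 were not called without a control, among them those of Ndel1, a regulator of dynein (98.0), Grk5, a kinase of G protein-coupled receptors (94), Mapksp1, a scaffold of MAP kinase signalling (93.4), and Ube2k, a ubiquitin-conjugating enzyme (91.8).

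The counts at these 25 loci ran from 39 to 4390 tags in STAT3 of SAHA, with a median of 131. At 22 of them the count was above 45, the highest away from IgG regions, and at 3 it was not. The region at Mir715 held 4390 tags in STAT3 of SAHA, 2502 in STAT3 of diluent and 2904 in IgG, or 246, 100 and 153 per 1000000. The region at Axin2 held 220 tags in STAT3 of SAHA, 140 in STAT3 of diluent and 125 in IgG, or 12.4, 5.60 and 6.60 per 1000000. In both, SAHA was the highest library and diluent the lowest. At Chl1 the counts were 631 tags in SAHA, 705 in diluent and 639 in IgG. At Rpusd4 they were 1398 in SAHA, 1403 in diluent and 1399 in IgG, and at Cdk5rap2 408 in SAHA, 416 in diluent and 418 in IgG. At those 3 loci the libraries held nearly equal raw counts, and SAHA had a score above 60 at each.

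Per filtered tag, SAHA over IgG had a median ratio of 1.48 over the 25 loci (lowest 0.999, highest 2.41). At 13 loci the exact conditional binomial interval of the ratio lay above 1. The highest was mimp3 at 2.41 (1.55 to 3.83), and Axin2 had 1.87 (1.49 to 2.35). Diluent over IgG had a median of 0.803 (lowest 0.652, highest 1.46), with 0 intervals above 1 and 9 below. SAHA over diluent had a median of 1.77 (lowest 1.15, highest 2.62). The rule required a call against IgG in SAHA and none in diluent, so these ratios describe how the regions were selected and support nothing further. The regions were also called separately in each library and differ in length: per kb, SAHA exceeded IgG at 21 of 25 loci and exceeded diluent at 24.

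**Figure D3:**
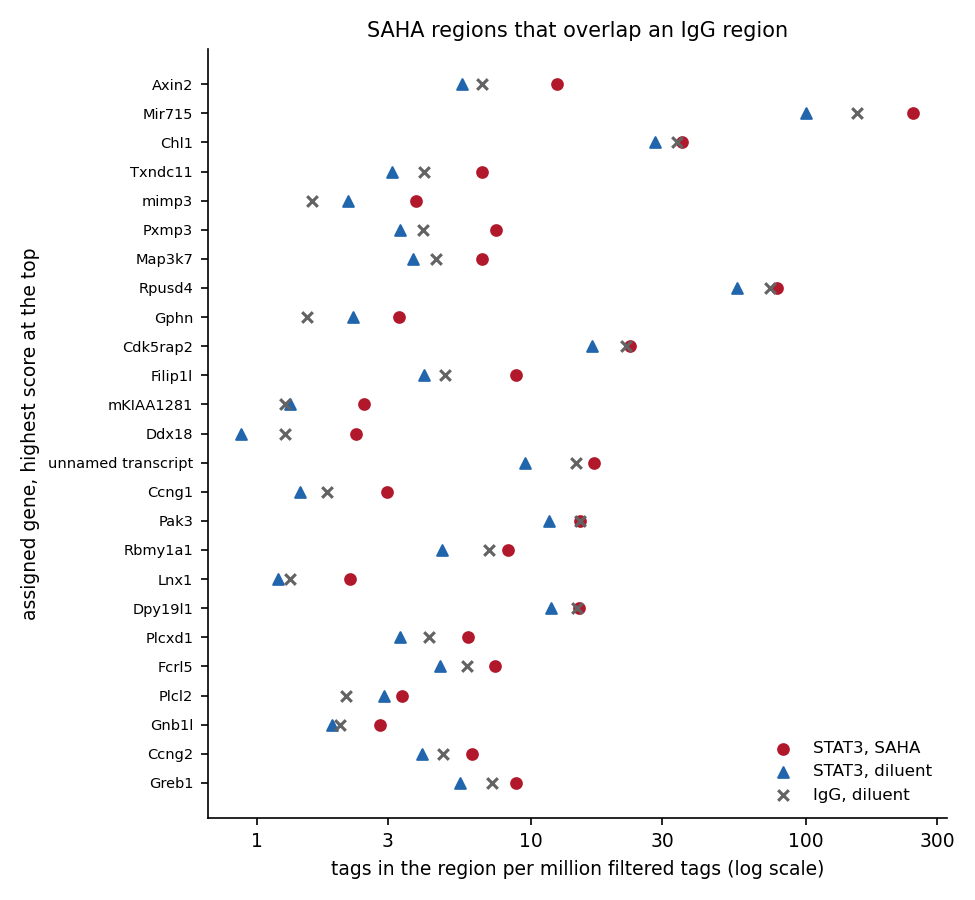
Tag count for every 1000000 filtered tags (log scale) in the control-free regions at the 25 SAHA regions that overlap an IgG region, for STAT3 in SAHA, STAT3 in diluent and IgG in diluent, ordered by score. The circles (SAHA) are at or to the right of the other symbols, except at Pak3, where IgG is marginally higher.

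The only diluent region over an IgG region lay 345 kb upstream of the olfactory receptor gene Olfr161 on chr16:3245998-3248614, with 176 tags in diluent against 53 in IgG (score 45.9). The control was made with diluent cells alone, and no IgG library of SAHA cells was used here, so a change of background under SAHA and a STAT3 signal at these loci cannot be told apart.

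The rule left out every region on H3K4me3, so the distances to that mark describe the selected regions and are partly set by the selection. The median gap to the nearest H3K4me3 region of either condition was 18.3 kb for SAHA regions and 23.4 kb for diluent regions. Within 1 kb lay 98 SAHA regions (6.56%) and 24 diluent regions (4.56%), against 37.5% of the rest of the SAHA list and 36.0% of the rest of the diluent list, which include regions on the mark. The gap was 20 bp at Agtpbp1, an enzyme that removes glutamates from tubulin (score 86.4), and 32 bp at Cyp2u1, a cytochrome P450 (score 86.5), so these SAHA regions missed the overlap narrowly. In diluent the closest was Nr1d2, which encodes the clock repressor REV-ERB beta, at 51 bp. The assigned start itself carried H3K4me3 within 1 kb in 803 SAHA regions (53.7%) and 283 diluent regions (53.8%) of the same condition, against 62.9% of the whole SAHA list and 60.7% of the whole diluent list, which hold the regions that the rule removed. Unshared regions on H3K4me3 had such a start in 92.2% of cases in SAHA and 86.7% in diluent. Regions of the same kind as the members with scores under 40 had 51.5% in SAHA and 49.2% in diluent.

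Overlap with the opposite STAT3 list was also barred by the rule, which partly sets the gap to that list. The nearest region of the opposite STAT3 list was within 1 kb of 9 SAHA regions (0.602%) and 9 diluent regions (1.71%), against 4.18% of the rest of the SAHA list and 9.83% of the rest of the diluent list, which include overlapping regions. The median gap was 176 kb for SAHA regions and 65.1 kb for diluent regions. The SAHA regions were set against the shorter list. Lower-scoring regions of the same kind had 0.498% in SAHA and 0.936% in diluent within 1 kb.

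**Figure D4:**
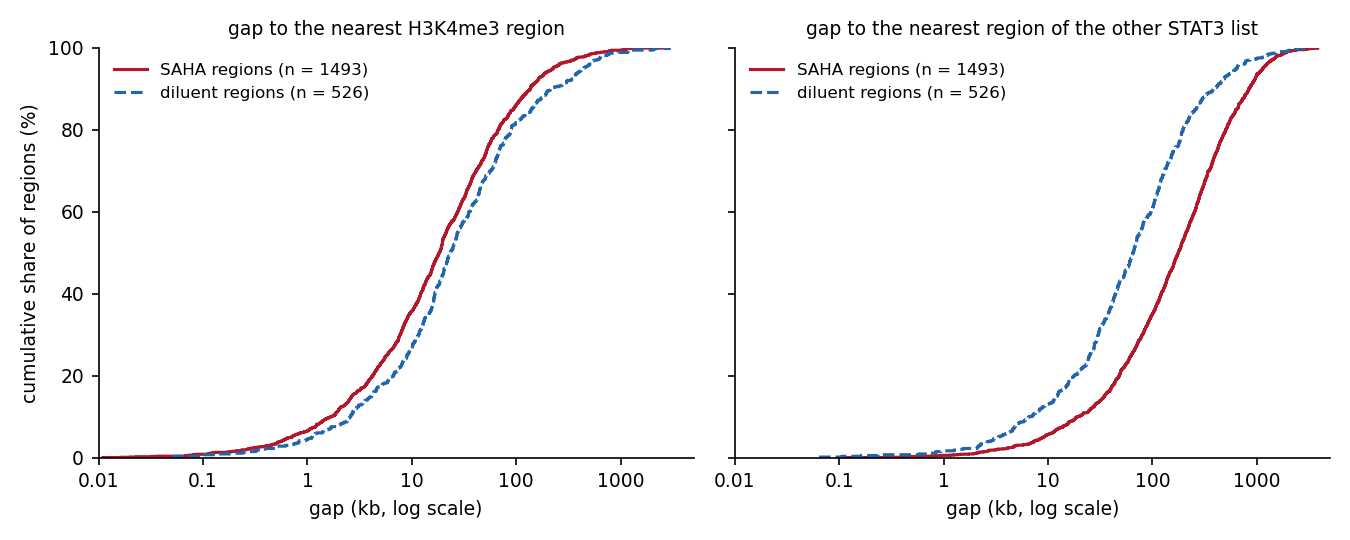
Cumulative share (%) of SAHA regions (solid) and diluent regions (dashed) by gap in kb (log scale) to the nearest H3K4me3 region (left) and to the nearest region of the opposite STAT3 list (right). The medians are 18.3 kb (SAHA) and 23.4 kb (diluent) on the left and 176 kb (SAHA) and 65.1 kb (diluent) on the right; 1 SAHA region on Y had no region to be set against.

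SAHA regions were assigned to 1388 genes and diluent regions to 491, with 70 genes in both (5.04% of the SAHA genes and 14.3% of the diluent genes). In the whole lists, which include overlapping regions and are longer, the shares were 20.8% of 6335 SAHA genes and 45.9% of 2872 diluent genes. At those shared genes the nearest SAHA and diluent regions were a median of 33.9 kb apart, 2 pairs were within 1 kb and 21 were beyond 100 kb. The closest pair lay near Ahr, the aryl hydrocarbon receptor, a ligand-activated transcription factor of immune cells. The SAHA region there (chr12:36100297-36101587, score 48.0, 20 tags) and the diluent region (chr12:36102428-36103777, score 71.2, 34 tags) were 841 bp apart, at 119 kb (SAHA) and 117 kb (diluent) past the start. At Gemin5, which binds small nuclear RNA precursors, they were 944 bp apart with scores of 42.7 in SAHA and 41.8 in diluent. At Nr4a3, an orphan nuclear receptor, they were 7.22 kb apart, and at Ly75, which encodes the dendritic cell uptake receptor DEC-205, 11.7 kb.

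The 10 gene lists counted here, from cytokine signalling and dendritic cell identity to housekeeping, held 298 genes, and 32 SAHA regions were assigned to 28 of them (2.14%, against 2.36% of the whole SAHA list), and 7 diluent regions to 7 (1.33%, against 3.14% of the whole diluent list). In the JAK-STAT pathway the SAHA regions included Stat6, the transcription factor of IL-4 signalling (10.6 kb upstream, chr10:127068842-127069960, score 84.7), and the feedback inhibitors Socs5 (60.5) and Socs2 (47.1). The diluent regions included 0 of its 34 genes. The list took 0.201% of SAHA regions against 0.304% of the whole SAHA list, and 0% of diluent regions against 0.257% of the whole diluent list, which are small counts. None of the 3 SAHA regions was called without a control in the SAHA library.

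Among known targets of STAT3 and of cytokines, SAHA regions were assigned to Hif1a, the hypoxia factor (26.7 kb upstream, score 58.9, 20 tags), to Fos with regions on either side (50.6 and 47.4), to Myc (46.3), to Maf (45.0) and to Ccnd1, cyclin D1 (43.2). The diluent regions were those of Tnfaip3 and of Etv3, a transcriptional repressor that IL-10 induces in macrophages (4.17 kb upstream, score 48.6, 41 tags). That list took 0.402% of SAHA regions against 0.585% of the whole SAHA list. It took 0.380% of diluent regions against 0.542% of the whole diluent list. Both diluent regions were called without a control, as was 1 of the 6 SAHA regions. Both Fos regions lay within 1 kb of H3K4me3, at 578 and 820 bp.

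In the list of 32 inflammatory cytokines, chemokines and receptors, SAHA regions were assigned to Il15 (45.6, 127 kb past its start) and the TNF receptor Tnfrsf1a (48.4), and a diluent region to Il18 (11.2 kb upstream, chr9:50351165-50352414, score 66.0, 34 tags). These were 0.134% of SAHA regions against 0.140% of the whole SAHA list. In diluent the share was 0.190%, against 0.371% of the whole diluent list. In Toll-like receptor and NF-kB signalling, SAHA regions were assigned to Map3k7 at 2 sites, to the adaptor Traf3 (49.9) and to Nfkb1, the p105 precursor (45.5), and 0 diluent regions to the 34 genes of that list, which took 0.268% of SAHA regions against 0.175% of the whole SAHA list, and 0% of diluent regions against 0.428% of the whole diluent list. The lists are not complete: outside them, and given as examples chosen after their values were seen, the flagellin receptor Tlr5 had both a SAHA region (40.4) and a diluent region (40.7), the cytokine genes Lta (51.3), Tnfsf15 (55.5, the higher of 2 sites) and Ifnk (56.3) had SAHA regions, and the chemokine gene Cxcl3 (53.6) had a diluent region. Neither set held any of the 18 regulatory dendritic cell molecules counted here, nor any of the 15 housekeeping genes. The regulatory molecules took only 0.164% of the whole SAHA list and 0.200% of the whole diluent list. Housekeeping genes took 0.117% of the whole SAHA list and 0.171% of the whole diluent list. At such small shares these absences are not read as a trait of the unshared regions.

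In the list of dendritic cell and myeloid identity, the SAHA regions were at Cd83, a maturation marker (52.0), Mertk, a receptor for apoptotic cells (44.7), Tcf4, the plasmacytoid factor (43.7), Runx1 at 2 sites (42.7 and 40.7), Cx3cr1, the fractalkine receptor (41.6), and Ciita, the master regulator of MHC class II (score just over 40). None of those 7 was called without a control. The diluent regions were at H2-Ab1, an MHC class II chain (5.49 kb upstream, chr17:34393956-34395417, score 57.3, 33 tags), and Batf3, a factor of cross-presenting dendritic cells (40.3). Identity genes made up 0.469% of the SAHA regions against 0.351% of their list, and 0.380% of the diluent regions against 0.513% of theirs. Markers of lymphoid, erythroid, granulocyte and mast cells had 3 SAHA regions, at Kit, Cd8b1 and Pax5, and 0 diluent regions. These markers made up 0.201% of the SAHA regions against 0.222% of their list, and 0% of the diluent regions against 0.200% of theirs. Neuronal and developmental genes had 2 SAHA regions (0.134%, against 0.222% of the whole SAHA list). They had 1 diluent region (0.190%, against 0.428% of the whole diluent list).

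Among the enzymes of histone acetylation and H3K4 methylation, SAHA regions were assigned to Hdac4 at 2 sites (56.8 and 40.4) and Hdac9 (44.2), which are class IIa deacetylases, to the acetyltransferase Ep300 (56.8) and to Ash2l, a subunit of H3K4 methyltransferases (42.5). A diluent region was assigned to the H3K4 demethylase Kdm5c (42.8). These were 0.335% of SAHA regions against 0.152% of the whole SAHA list, and 0.190% of diluent regions against 0.143% of the whole diluent list, or 5 regions and 1 region.

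Some genes gathered several unshared regions. In SAHA, 91 genes had 2 or more, and Snx29, a sorting nexin, and Med13l, a Mediator subunit, had 4 each, as did an unnamed transcript. The 4 at Snx29 ran over 151 kb (chr16:11366340-11517146), 3 of them inside its body, with scores from 40.5 to 51.4. Groups of 3 or more regions with gaps of at most 100 kb numbered 24 in SAHA, among them those of Nrp2, a semaphorin receptor, Chst11, a sulfotransferase, Pfkfb3, a regulator of glycolysis, and Fos with Jdp2, a repressor of AP-1. In diluent, 32 genes had 2 or more and the only such group was that of Stim2, a calcium sensor of the endoplasmic reticulum (chr5:54377169-54488468, scores from 42.7 to 59.5). The sets differ in size, at 1494 SAHA and 526 diluent regions, and the part of size in these counts was not tested. Such groups held 4.89% of SAHA regions against 45.4% of the whole SAHA list, and 0.570% of diluent regions against 18.1% of the whole diluent list. Among regions of the same kind with scores under 40 they held 17.0% of 4621 in SAHA and 6.13% of 1924 in diluent. All these sets are larger than those of the members, and the part of size in the shares was not tested either. Tet2, which oxidises 5-methylcytosine, had 3 diluent regions from 4.26 to 81.6 kb from its start. Chromosome 13 held 8.56% of diluent regions (6.31 to 11.3) against 5.67% of the rest of the diluent list (4.87 to 6.56), and chromosome 18 held 4.22% of SAHA regions (3.26 to 5.36) against 3% of the rest of the SAHA list (2.62 to 3.43), with overlapping intervals in both. These chromosomes were chosen after their values were seen.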

How the data were processed

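The data were 5 ChIP-seq libraries, 1 per group. The submitters' processing notes name BWA and the build mm9. Each deposited list against IgG, which lacks a header line, holds a score per region, a gene and its distance; its caller settings are not stated in the labels or headers. MACS 1.4.0rc2, per the file headers, made the single-library tables, using no control, a p-value limit of 1e-05 and at most 2 duplicate tags, and they hold tag counts, a fold enrichment (ratio) and a −log10 p multiplied by 10.

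The members and gene lists were chosen with earlier results of these data known. Regions overlapped where they shared at least 1 bp. Distances run from the midpoint to the assigned start, and coordinates are 1-based mm9. Named genes were the highest scores, extremes of length and distance, listed genes, and regions over IgG or control-free regions. The members closest to H3K4me3, to the opposite STAT3 list, at microRNA genes or at genes of both sets were named after their values were seen. Symbols matched RefSeq for 83.8% of SAHA and 80.7% of diluent genes. Count ratios were scaled to filtered tags. Versions were pandas 2.3.3, scipy 1.17.1, numpy 2.4.6 and Python 3.11.15. Alternatives changed the score minimum, the overlap and the start.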

Additional observations from a re-analysis of the deposited data

How the results depend on the processing

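Of 100 alternative values of shares and medians, 69 stayed within the main value's interval and 31 moved, and of 14 alternative numbers of regions 8 were within 1.5 times the main number. A score minimum of 30 gave 6115 SAHA and 2450 diluent regions, median lengths of 589 bp in SAHA and 655 bp in diluent, an IgG share of 0.605% in SAHA, shares called without a control of 2.45% in SAHA and 6.12% in diluent, and gaps to H3K4me3 of 20.8 kb in SAHA and 32.1 kb in diluent. A minimum of 50 gave 439 SAHA and 157 diluent regions, lengths of 757 bp in SAHA and 995 bp in diluent, IgG shares of 3.42% in SAHA and 0% in diluent, control-free shares of 19.8% in SAHA and 43.3% in diluent, gaps to H3K4me3 of 14.1 kb in SAHA and 17.6 kb in diluent, 0.228% of SAHA regions within 1 kb of the opposite list, and 31.2% of diluent regions beyond 50 kb. The top 500 regions of each list gave 167 SAHA and 245 diluent regions, lengths of 889 bp in SAHA and 945 bp in diluent, a SAHA IgG share of 7.19%, control-free shares of 36.5% in SAHA and 34.7% in diluent, and gaps to H3K4me3 of 11.7 kb in SAHA and 19.6 kb in diluent. These top regions were still checked against the whole opposite list, and the intervals of their 2 control-free shares overlapped. Counting regions within 1 kb as shared gave 13.5% of SAHA and 9.49% of diluent regions within 5 kb of a start and a SAHA gap to H3K4me3 of 19.9 kb. Calling a region shared only at 50% coverage gave 3.35% of diluent regions within 1 kb of the opposite list. Chosen after seeing the data, leaving out SAHA regions over IgG gave a SAHA control-free share of 6.67%, and leaving out those over control-free H3K4me3 regions gave a SAHA IgG share of 0.204% and a control-free share of 6.82%. The cause of these moves was not tested. The STAT motif counts inside the regions were not run, as no mm9 genome was used here. No paired analysis was possible because each group has 1 library. Away from IgG regions, single calls rested on 16 to 60 tags.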
